A study of Homo sapiens with 6 samples.

Results

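Transcripts of 10 genes that restrain or read out MAP kinase signalling were compared in PC-3/Mc and PC-3/S cells, which both descend from PC-3, an established human prostate cancer line. The genes were the dual-specificity phosphatases DUSP1, DUSP4, DUSP5, DUSP6 and DUSP10, the Sprouty genes SPRY1, SPRY2 and SPRY4, and the ETS transcription factor genes ETV4 and ETV5. They were chosen by name, with earlier results of these data known. Every probe set that the platform annotation assigns to one of these symbols alone was used, which gave 23 of the 54675 probe sets on the array. No member probe set carried several symbols. Each line was measured on 3 one-colour oligonucleotide arrays, which the labels call biological replicates, from cells lysed before confluence. No treatment is given for either line. Each group is a single cell line, and the labels used here do not say how the sublines arose, whether either is 1 clone, or whether the replicates were separate cultures. P-values therefore measure the spread between these arrays, which may be technical. The study's stated question is the relation of epithelial-mesenchymal transition to properties of tumor-initiating cells.

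Growth factor receptors activate RAS, RAF, MEK and ERK in turn, and active ERK switches on genes whose products damp the same cascade. The dual-specificity phosphatases remove phosphate from both the threonine and the tyrosine of the MAP kinase activation loop. DUSP1, DUSP4 and DUSP5 are inducible nuclear enzymes, DUSP6 is cytoplasmic and prefers ERK, and DUSP10 acts mainly on the stress kinases JNK and p38. Sprouty proteins act further upstream, between receptor tyrosine kinases and RAF. ETV4 and ETV5 belong to the PEA3 group of ETS factors, which are induced by FGF and ERK signalling and are widely read as transcriptional outputs of that pathway.

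The 6 arrays were alike in scale, with medians of 4.98 to 5.09 on the log2 scale, and correlated at 0.995 to 0.997 within a line and 0.949 to 0.952 between lines. The 3' minus 5' log2 difference of the GAPDH control probe sets ran from -0.08 to 0.04 in PC-3/Mc and from 0.01 to 0.07 in PC-3/S. Of 6 epithelial markers, PC-3/Mc showed 6 above background and PC-3/S showed 5, the exception being CDH1, and their summed log2 level was 13.67 to 13.71 against 12.74 to 12.78. PC-3/Mc was higher for EPCAM (43.3-fold), CDH1 (5.65-fold as a lower bound), KRT18 (2.23-fold) and KRT8 (2.04-fold), whereas KRT7 was 2.91-fold and KRT19 1.39-fold lower. Of 4 luminal prostate markers measured, 3 read above background in each line. All 3 leukocyte markers measured read as background in both lines. The summed level of 6 stromal markers, of which PC-3/Mc showed 3 and PC-3/S showed 4 above background, was 9.32 to 9.41 on the PC-3/Mc arrays and 8.74 to 8.84 on the PC-3/S arrays (log2), with PDGFRB at background in both. COL1A2 carried the higher sum (log2 difference 4.12 as measured, at least 9.9-fold with PC-3/S at background). COL3A1 (-1.93 as measured) and DCN (-0.44 as measured) read as background in PC-3/Mc and were at least 2.05-fold and 1.11-fold lower there. ACTA2 (-0.66) and COL1A1 (-0.28) were lower in PC-3/Mc as well. The summed level of 4 endothelial markers, 1 and 2 of them above background, was 7.66 to 7.74 and 7.70 to 7.87, with CDH5 and VWF at background in both. KDR was lower in PC-3/Mc, where it read as background (-2.17 as measured, at least 2.07-fold), and PECAM1 was higher (0.60). The part of these markers in the results was not tested. Background here means a log2 value of at most 5.18, the highest that any probe set of CTNNA1 reached. PC-3 cells are known to have lost CTNNA1. Where 1 line lay at or under that value, a fold is given as a lower bound.

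Start regions from RefSeq (assembly GRCh38.p14) were used for DUSP1, DUSP6, DUSP10, SPRY1, SPRY2 and SPRY4, with 10 annotated starts, and those of DUSP4, DUSP5, ETV4 and ETV5 were not analysed here. The 250 bases before the start are shown for 3 members that were lower in PC-3/Mc, DUSP1, SPRY2 and SPRY4, and for DUSP6, which passed the test with none of its probe sets. For SPRY2 the start farthest upstream was taken. Capitals mark matches on either strand to the cAMP response element core TGACGT, the AP-1 element TGANTCA, the ETS element CCGGAA or the E-box CACGTG.
DUSP1, chr5:172771196-172771445, minus strand: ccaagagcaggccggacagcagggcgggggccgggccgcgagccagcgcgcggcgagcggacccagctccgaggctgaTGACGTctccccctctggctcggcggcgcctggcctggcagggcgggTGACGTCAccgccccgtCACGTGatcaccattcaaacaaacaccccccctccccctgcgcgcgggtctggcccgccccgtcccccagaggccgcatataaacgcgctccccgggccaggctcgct
SPRY2, chr13:80341127-80341376, minus strand: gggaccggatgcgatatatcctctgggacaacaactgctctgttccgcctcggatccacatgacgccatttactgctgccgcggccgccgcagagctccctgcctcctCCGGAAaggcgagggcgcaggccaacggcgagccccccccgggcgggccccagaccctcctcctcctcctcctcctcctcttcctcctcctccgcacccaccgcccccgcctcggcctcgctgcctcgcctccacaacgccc
SPRY4, chr5:142324248-142324497, minus strand: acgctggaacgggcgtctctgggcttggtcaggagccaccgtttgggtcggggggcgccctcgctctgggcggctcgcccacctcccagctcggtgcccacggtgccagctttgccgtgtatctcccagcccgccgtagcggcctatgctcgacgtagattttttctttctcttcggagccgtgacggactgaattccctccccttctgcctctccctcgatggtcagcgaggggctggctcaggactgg
DUSP6, chr12:89352502-89352751, minus strand: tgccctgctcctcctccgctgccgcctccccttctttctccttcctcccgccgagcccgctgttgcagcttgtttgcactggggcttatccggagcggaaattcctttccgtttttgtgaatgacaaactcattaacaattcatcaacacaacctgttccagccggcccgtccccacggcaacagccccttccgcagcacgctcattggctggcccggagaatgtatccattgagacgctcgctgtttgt
The DUSP1 region held 3 matches to TGACGT, at bases 172 to 167, 125 to 120 and, on the opposite strand, 123 to 118 before the start, the last pair overlapping each other. It also held a CACGTG at bases 108 to 103. The SPRY2 region held a CCGGAA at bases 142 to 137, and the windows of the 2 other SPRY2 starts held no match. No match to these letters lay in the windows of SPRY4 or DUSP6, nor in either window of DUSP10, and SPRY1 had a CCGGAA before 1 of its 2 starts. Among all 35116 start regions of this length, 7.10% held TGACGT, 6.57% TGANTCA, 14.5% CCGGAA and 6.34% CACGTG. These matches describe the sequence, and binding was not measured.

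Most of the phosphatase and Sprouty genes read lower in PC-3/Mc than in PC-3/S, DUSP6 and ETV4 did not pass the test, and ETV5 was higher. In a limma fit over 54613 probe sets with Benjamini-Hochberg adjustment, 12 of the 23 member probe sets were lower in PC-3/Mc at an adjusted p under 0.05, against 17.5% of all probe sets. Another 4 were higher, against 18.4% of all, so that 16 were called in either direction, against 35.9%, and 7 were not. By the difference as measured, background readings included, 8 of the 23 were lower by at least 2-fold, against 3.94% of all probe sets. One of them, DUSP10 221563_at, is bounded only at 1.94-fold, since PC-3/Mc lay at background. None was at least 2-fold higher, against 4.41% of all. For 18 of the 23 the arrays of the lines showed no overlap, against 45.3% of all probe sets. By the brightest probe set of each gene, 7 of the 10 genes were lower (22.7% of all 19775 genes), 1 was higher (23.2% of all) and 2 were not called. The 8 called genes compare with 45.9% of all genes, and the same 8 did not overlap between the lines, against 53.1%. Of the 7, 6 were lower by at least 2-fold as measured, against 5.58% of all genes, with DUSP10 again among them, and 0 of the 10 were at least 2-fold higher, against 5.88%. The median log2 difference of the 10 genes was -1.15, and that of all genes was -0.03. Since the members were chosen with earlier results of these data known, these shares are no independent evidence about the family. Throughout, a log2 difference is the PC-3/Mc mean less the PC-3/S mean, ± SE from limma with n = 3 arrays per line, and levels are mean ± SD.

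**Figure D1:**
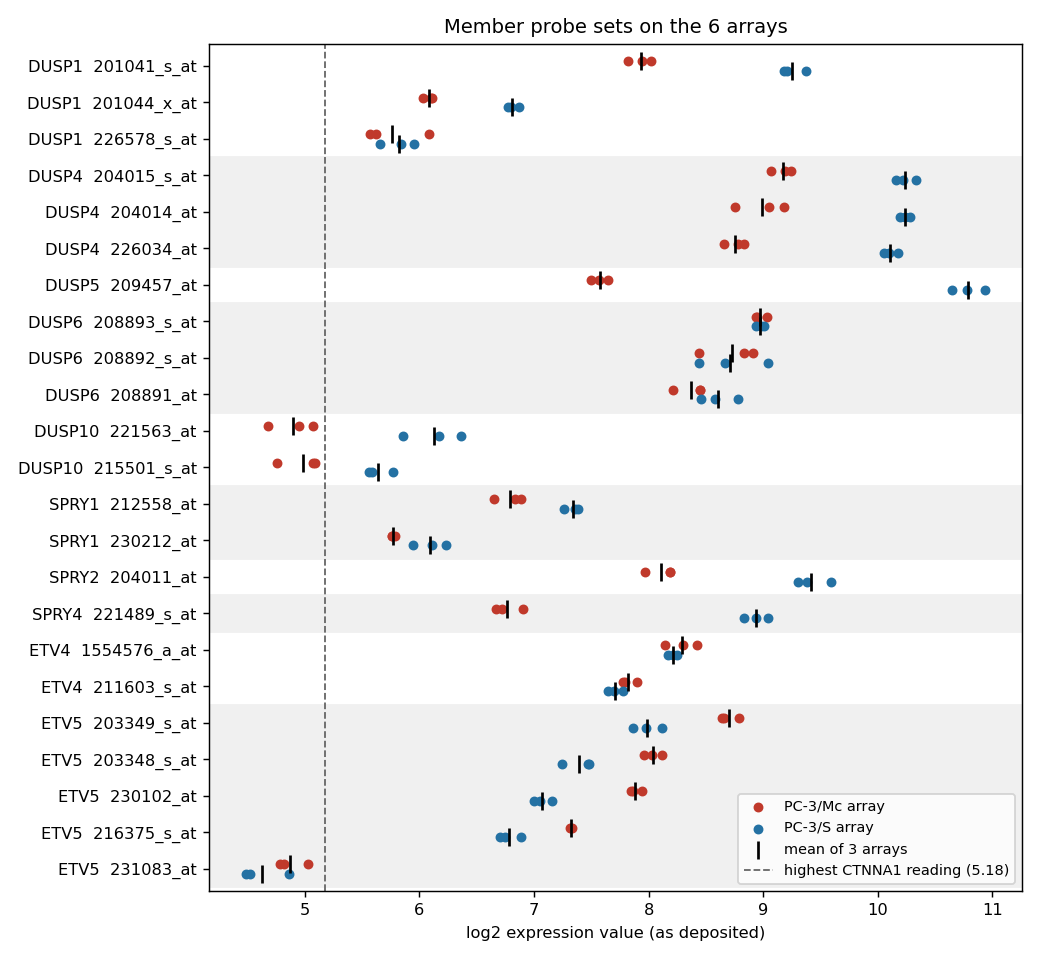
Log2 expression value (horizontal axis, as deposited) of the 23 member probe sets on each of the 6 arrays, with black ticks at the mean of 3 arrays and a dashed line at 5.18, the highest CTNNA1 reading. The PC-3/S arrays lie to the right of the PC-3/Mc arrays for DUSP4, DUSP5, DUSP10 and the Sprouty genes, overlap them for 2 of the 3 DUSP6 probe sets, and lie to their left for 4 of the 5 ETV5 probe sets.

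DUSP5, the nuclear phosphatase that dephosphorylates and anchors ERK, showed the largest difference of the members. Its only probe set, 209457_at, read 7.65, 7.57 and 7.50 in PC-3/Mc replicates 1, 2 and 3 and 10.94, 10.65 and 10.78 in the PC-3/S replicates. Every PC-3/S array was above every PC-3/Mc array, and the gap between the lines was far wider than the spread within either. The log2 difference was -3.21 ± 0.10, or 9.27-fold lower in PC-3/Mc (limma adjusted p = 1.95e-10). Only 0.278% of all tested probe sets were as far or farther below 0.

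DUSP4, a nuclear phosphatase that acts on ERK and JNK, was lower in PC-3/Mc on all 3 of its probe sets. Probe set 204015_s_at read 9.24, 9.07 and 9.19 in PC-3/Mc and 10.22, 10.16 and 10.33 in PC-3/S. Probe set 204014_at read 9.18, 9.05 and 8.75 against 10.28, 10.19 and 10.24, and 226034_at read 8.78, 8.83 and 8.66 against 10.18, 10.10 and 10.05. On none of the 3 did the lines overlap, and the differences lay close together at -1.07 ± 0.09, -1.24 ± 0.11 and -1.36 ± 0.09. Their limma adjusted p-values were 1.38e-06, 2.23e-06 and 1.51e-07, and the folds ran from 2.10 to 2.56.

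DUSP1, an immediate-early phosphatase that acts on p38, JNK and ERK, gave a different answer by probe set. The brightest, 201041_s_at, read 8.02, 7.94 and 7.82 in PC-3/Mc and 9.21, 9.18 and 9.37 in PC-3/S, without overlap, a log2 difference of -1.33 ± 0.09 or 2.51-fold (limma adjusted p = 2.79e-07). Probe set 201044_x_at read 6.11, 6.10 and 6.03 against 6.87, 6.77 and 6.80 and was lower as well, by a smaller difference of -0.74 ± 0.08 (limma adjusted p = 1.69e-05). The third, 226578_s_at, read 5.62, 5.57 and 6.08 against 5.84, 5.95 and 5.66. Here the lines overlapped, and the difference of -0.06 (95% confidence interval -0.35 to 0.23) was not called (limma adjusted p = 0.781). All 3 are of the _s_at or _x_at type, whose probes can match more than 1 transcript. With the mean of the 3 probe sets standing for the gene, the difference shrank to -0.71 and stayed called.

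DUSP10, the phosphatase of JNK and p38, was dim in PC-3/Mc. Probe set 221563_at read 4.95, 5.07 and 4.68 in PC-3/Mc, all at background, and 6.36, 5.86 and 6.17 in PC-3/S. The difference was -1.23 ± 0.13 as measured (limma adjusted p = 1.26e-05), and PC-3/S was at least 1.94-fold above the background reading. Probe set 215501_s_at read 5.09, 4.76 and 5.07 against 5.59, 5.56 and 5.77, a difference of -0.66 ± 0.11 (limma adjusted p = 0.000357) or at least 1.38-fold. On both, the lines did not overlap.

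DUSP6, the cytoplasmic ERK phosphatase, did not pass the test on any of its 3 probe sets. Its brightest, 208893_s_at, read 9.03, 8.95 and 8.94 in PC-3/Mc and 9.01, 8.94 and 8.98 in PC-3/S. These 6 values spanned no more than the arrays of a single line, and the 95% confidence interval of the difference ran from -0.18 to 0.18. Probe set 208892_s_at scattered more within each line, at 8.83, 8.91 and 8.44 against 8.67, 8.44 and 9.04, with an interval of -0.33 to 0.35. Probe set 208891_at read 8.45, 8.45 and 8.21 against 8.58, 8.46 and 8.78. Its lines fell just short of touching, and its difference of -0.24 ± 0.11 was not called (limma adjusted p = 0.115). It was called lower, at -0.33 (limma adjusted p = 0.012), only when the arrays were quantile-normalized.

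**Figure D2:**
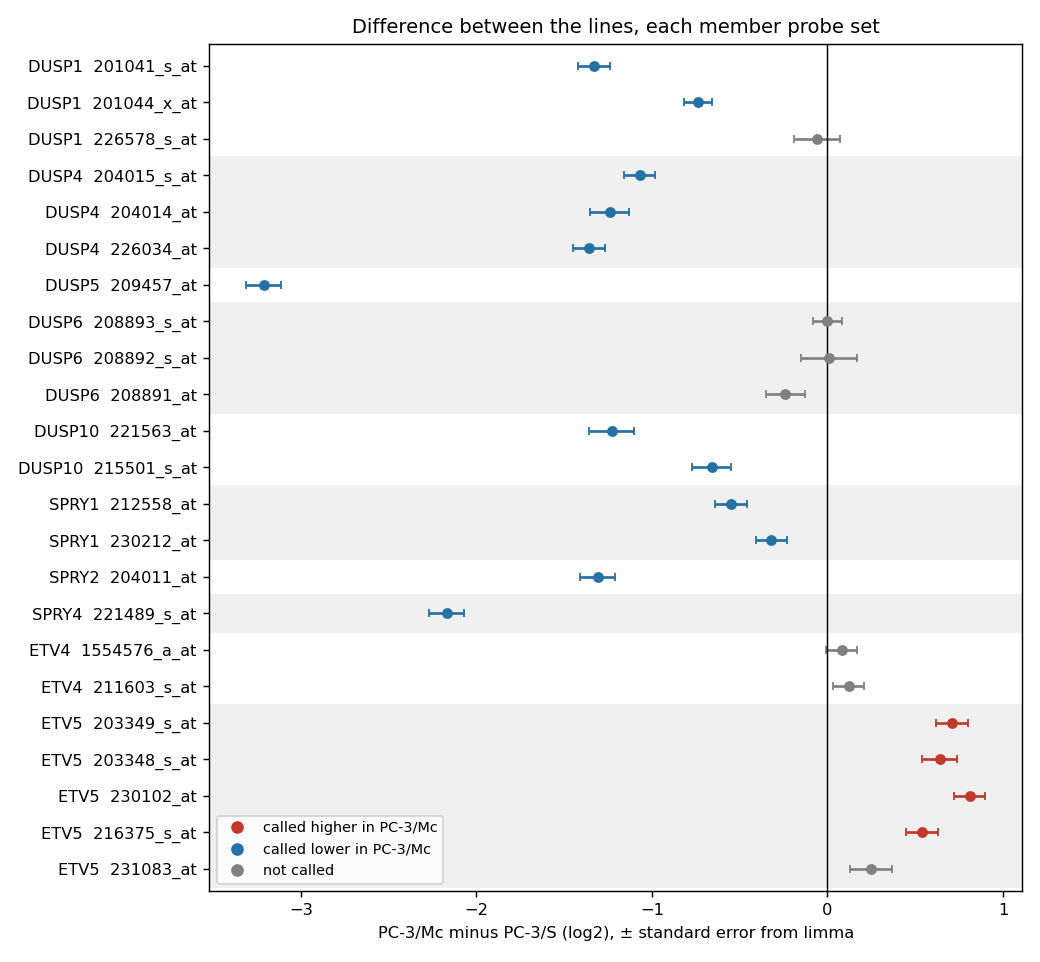
Difference between the lines (PC-3/Mc minus PC-3/S, log2, horizontal axis) for each member probe set, with bars of ± 1 SE from limma, coloured by the call at an adjusted p under 0.05. DUSP5 at -3.21 and SPRY4 at -2.17 lie farthest to the left, the 3 DUSP6 and 2 ETV4 probe sets lie near 0 without a call, and 4 of the 5 ETV5 probe sets lie to the right at 0.54 to 0.81.

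All 3 Sprouty genes were lower in PC-3/Mc, on each of their 4 probe sets. SPRY4, an inhibitor of receptor-driven RAS activation, read 6.90, 6.72 and 6.67 in PC-3/Mc and 9.04, 8.94 and 8.83 in PC-3/S on 221489_s_at. The lines stood well apart, with a difference of -2.17 ± 0.10 or 4.51-fold (limma adjusted p = 5.76e-09), and 0.784% of all probe sets were as far or farther below 0. SPRY2, which binds CBL and GRB2, read 8.19, 8.19 and 7.97 against 9.38, 9.30 and 9.59 on 204011_at. This was 2.48-fold lower without overlap, at -1.31 ± 0.10 (limma adjusted p = 8.23e-07). SPRY1, known as a brake on FGF and GDNF receptor signalling, showed the smallest differences. Its probe set 212558_at read 6.65, 6.89 and 6.83 against 7.36, 7.26 and 7.38, a difference of -0.55 ± 0.09 (limma adjusted p = 0.000486). The dimmer 230212_at read 5.79, 5.76 and 5.76 against 5.94, 6.23 and 6.11, a difference of -0.32 ± 0.09 (limma adjusted p = 0.0175). The 230212_at call was lost when PC-3/S replicate 2 was left out (-0.26, limma adjusted p = 0.089), and likewise for PC-3/S replicate 3 (-0.31, limma adjusted p = 0.0503). SPRY3 read as background in both lines, at 4.26 ± 0.11 and 4.45 ± 0.16.

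ETV5 was the single member called higher in PC-3/Mc. Its brightest probe set, 203349_s_at, read 8.79, 8.66 and 8.64 in PC-3/Mc and 8.12, 7.86 and 7.98 in PC-3/S. All PC-3/Mc arrays were above all PC-3/S arrays, with a difference of 0.71 ± 0.09 or 1.64-fold higher (limma adjusted p = 6.87e-05). Probe set 203348_s_at read 8.12, 7.96 and 8.03 against 7.47, 7.24 and 7.48, and 230102_at read 7.94, 7.86 and 7.85 against 7.00, 7.16 and 7.05. Probe set 216375_s_at read 7.33, 7.32 and 7.31 against 6.89, 6.75 and 6.70. These 3 did not overlap between the lines either, with differences of 0.64 ± 0.10, 0.81 ± 0.09 and 0.54 ± 0.09 and limma adjusted p-values of 0.000165, 1.04e-05 and 0.000322. The fifth, 231083_at, read 5.03, 4.78 and 4.82 against 4.49, 4.86 and 4.52, background in both lines. It was not called (0.25, limma adjusted p = 0.124), except without PC-3/S replicate 2 (0.37, limma adjusted p = 0.0246).

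ETV4, the founding PEA3 factor, was not called on either of its probe sets. Probe set 1554576_a_at read 8.14, 8.30 and 8.42 in PC-3/Mc and 8.21, 8.17 and 8.25 in PC-3/S, with the PC-3/S arrays inside the PC-3/Mc range. The 95% confidence interval of its difference was -0.13 to 0.28, and its sign turned from 0.08 to -0.02 under quantile normalization. Probe set 211603_s_at read 7.90, 7.79 and 7.78 against 7.78, 7.65 and 7.70. The PC-3/Mc arrays were above the PC-3/S arrays by a narrow margin, and the interval of -0.07 to 0.30 included 0 (limma adjusted p = 0.352). ETV1, the remaining PEA3 factor and not among the 10, was lower in PC-3/Mc on all 5 of its probe sets, the dimmest of them at background in both lines. Its brightest read 7.90, 7.91 and 7.28 against 8.69, 8.67 and 8.83 (log2 difference -1.03, limma adjusted p = 0.000133). The 3 PEA3 genes thus gave 1 higher, 1 lower and 1 not called.

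Whether members changed by different amounts was tested on the difference between the log2 values of a pair within each array, by brightest probe set, for 4 pairs chosen after their values were seen. DUSP5 minus DUSP6 shifted between the lines by -3.21, SPRY4 minus ETV5 by -2.88, SPRY4 minus ETV4 by -2.25 and SPRY4 minus DUSP6 by -2.17. The lines were separate in each pair, and the two-sided exact permutation p was 0.1 (0.1 after adjustment over the 4 pairs). That is the smallest p this design allows, so these tests could not pass 0.05.

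**Figure D3:**
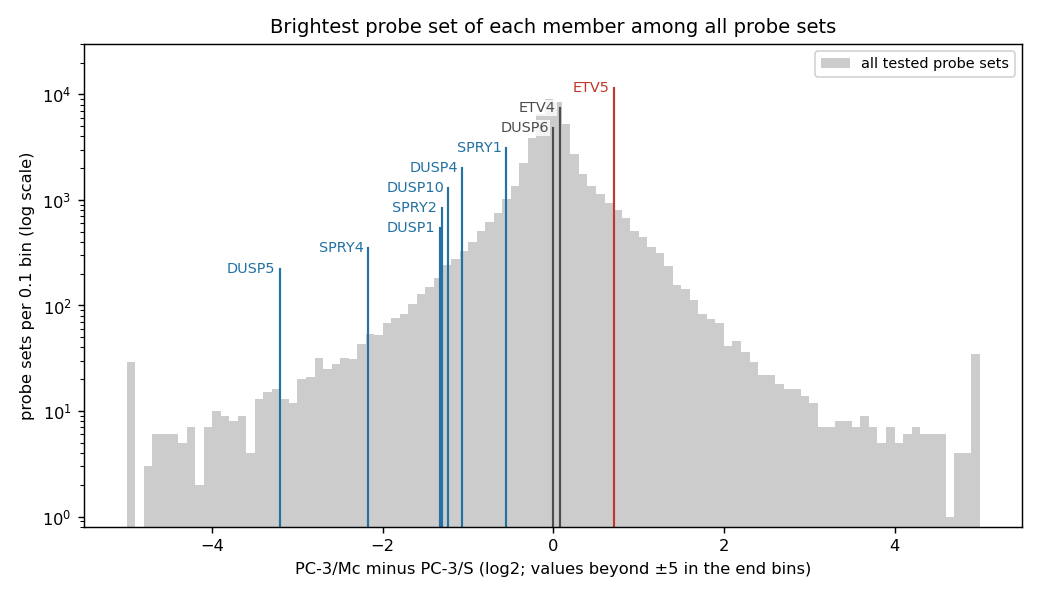
Number of probe sets (vertical log axis) by difference between the lines (PC-3/Mc minus PC-3/S, log2) for all 54613 tested probe sets in grey, with lines at the brightest probe set of each member. DUSP5 and SPRY4 lie in the thin left tail, SPRY2, DUSP1, DUSP10 and DUSP4 between -1.33 and -1.07, and DUSP6 and ETV4 at the centre of all probe sets.

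Of the 5 other MAP kinase phosphatases, counted by gene with the brightest probe set, 3 were higher in PC-3/Mc (23.2% of all genes), 0 were lower (22.7% of all) and 2 were not called, with a median of 0.58. DUSP2, a nuclear phosphatase of activated lymphocytes, read 6.77, 6.70 and 6.70 in PC-3/Mc and 4.91, 4.68 and 4.67 in PC-3/S. PC-3/S was at background, and PC-3/Mc was at least 2.93-fold above it (limma adjusted p = 1.96e-08). DUSP7, a cytoplasmic ERK phosphatase like DUSP6, was 1.49-fold higher at 8.95 ± 0.12 against 8.37 ± 0.08 (limma adjusted p = 0.000254). DUSP9, of the same cytoplasmic group, was at 5.85 ± 0.10 against a background reading of 5.10 ± 0.17, at least 1.55-fold higher. DUSP8 (-0.35) and DUSP16 (-0.17), which act on JNK and p38, were not called by their brightest probe sets. A dimmer DUSP8 probe set, 206374_at, was lower by -0.40 as measured (limma adjusted p = 0.00257). PC-3/Mc was at background there (5.01 against 5.41), so the fold is at least 1.18. The count of lower genes in limma was 0 at an unadjusted p under 0.05 as well, and it became 1 under each of these settings: quantile normalization, an intensity trend, the mean of all probe sets, _x_at and _s_at probe sets left out, PC-3/Mc replicate 3 left out and PC-3/S replicate 3 left out.

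Among 17 measured genes of other feedback on receptors and RAS, 6 were lower (22.7% of all genes), 4 higher (23.2% of all) and 7 not called, with a median of -0.08. The share of higher genes was near that of all genes. SPRED1, a Sprouty relative that brings neurofibromin to RAS, was at 8.04, 8.28 and 7.78 against 9.10, 9.08 and 9.39 and was 2.23-fold lower in PC-3/Mc (limma adjusted p = 2.73e-05). Its relatives SPRED2 (0.17, interval -0.01 to 0.35) and SPRED3 (-0.17, interval -0.37 to 0.02) were not called. ERRFI1, the EGF receptor inhibitor MIG6, was bright in both lines at 11.77 ± 0.07 and 13.39 ± 0.06 and 3.08-fold lower in PC-3/Mc. The cytokine feedback gene SOCS3 differed by -0.87. Against these ran IL17RD, which encodes the FGF feedback inhibitor SEF. It was 3.01-fold higher at 6.82 ± 0.08 against 5.23 ± 0.09, with PC-3/S just above background. PAQR3 (0.63), a protein that holds RAF at the Golgi, and RASA2 (0.48), a RAS GTPase-activating protein, were higher as well.

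Of 23 measured genes of the ERK cascade itself, 8 were higher, 5 lower and 10 not called, with a median of 0.07. Over all genes 23.2% were higher and 22.7% lower, so the share of lower genes was close to that of all genes. The MEK genes MAP2K1 (-0.12, 95% interval -0.29 to 0.05) and MAP2K2 (-0.14, -0.35 to 0.07), the ERK1 gene MAPK3 (-0.09, -0.26 to 0.09) and ARAF (0.02, -0.16 to 0.20) were not called. RPS6KA1, which encodes the ERK-activated kinase RSK1, was 2.11-fold higher and HRAS 1.74-fold higher, while the RAS relatives MRAS and RRAS were 2.81-fold and 2.48-fold lower. The exchange factors split, with SOS1 higher (0.49) and SOS2 lower (-1.12). The count of higher genes dropped to 5 without PC-3/S replicate 1, and that of lower genes was 8 with quantile normalization and 3 with the mean of all probe sets. Of 17 measured genes of the p38 and JNK cascades, 8 were higher (23.2% of all genes), 7 lower (22.7% of all) and 2 not called, and the median was -0.03. The p38 target kinase gene MAPKAPK3 was 2.20-fold higher, the kinase genes MAP3K4 (1.00) and MAP3K5 (0.90) were higher, and MAP2K6 (-0.65), MAPK8IP3 (-0.52) and the JNK1 gene MAPK8 (-0.49) were lower. With _x_at and _s_at probe sets left out, the higher count was 4.

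Of 23 measured genes known to respond to ERK or to drive such responses, members left out, 14 were lower in PC-3/Mc, against 22.7% of all genes, 4 were higher, against 23.2%, and 5 were not called. Their median was -0.71. LIF, a cytokine of the interleukin-6 family, read 6.99, 7.11 and 6.88 against 10.60, 10.58 and 10.57. HBEGF, an EGF receptor ligand, read 7.25, 7.19 and 7.20 against 9.87, 9.86 and 9.96. Both were far apart between the lines, at -3.59 ± 0.08 and -2.68 ± 0.08. The ternary complex factor gene ELK3 differed by -1.59, the ERK-stabilised AP-1 gene FOSL1 by -0.86, CCND1 by -0.74 and the survival-related gene PHLDA1 by -0.95, the last on all 6 of its probe sets. MYC, 3.25-fold higher at 13.08 ± 0.05 against 11.38 ± 0.01, and ELK1 (0.49) were higher. The immediate-early gene EGR1 was called higher (0.35) near background at 5.57 and 5.22, and 2 dimmer EGR1 probe sets were not called. FOS was called higher (0.57) with both lines at background. The higher count was 1 with _x_at and _s_at probe sets left out.

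Of 20 measured FGF and EGF family receptors and ligands, MET and HGF included, 10 were lower (22.7% of all genes), 1 was higher (23.2% of all) and 9 were not called, with a median of -0.26. Among the lower genes, EGF read as background in both lines (4.08 and 4.71), and HBEGF was also counted with the ERK-responsive genes. BTC (-0.28) and HGF (-0.35) were called lower although their arrays overlapped between the lines. FGF1, which activates all FGF receptors, read 4.96, 5.30 and 5.46 against 8.09, 8.09 and 8.08 and was 7.18-fold lower in PC-3/Mc. The PC-3/Mc mean of 5.24 lay just above background, with replicate 1 under it, which limits this fold. FGF5 was 1.95-fold lower. The single higher gene was TGFA, a ligand of the EGF receptor, at 8.82, 8.97 and 8.78 against 6.89, 6.60 and 7.22, or 3.87-fold. EGFR itself was lower by -0.38 (limma adjusted p = 0.00317). The higher count was 2 with the mean of all probe sets, and also without those ending in _x_at or _s_at.

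**Figure D4:**
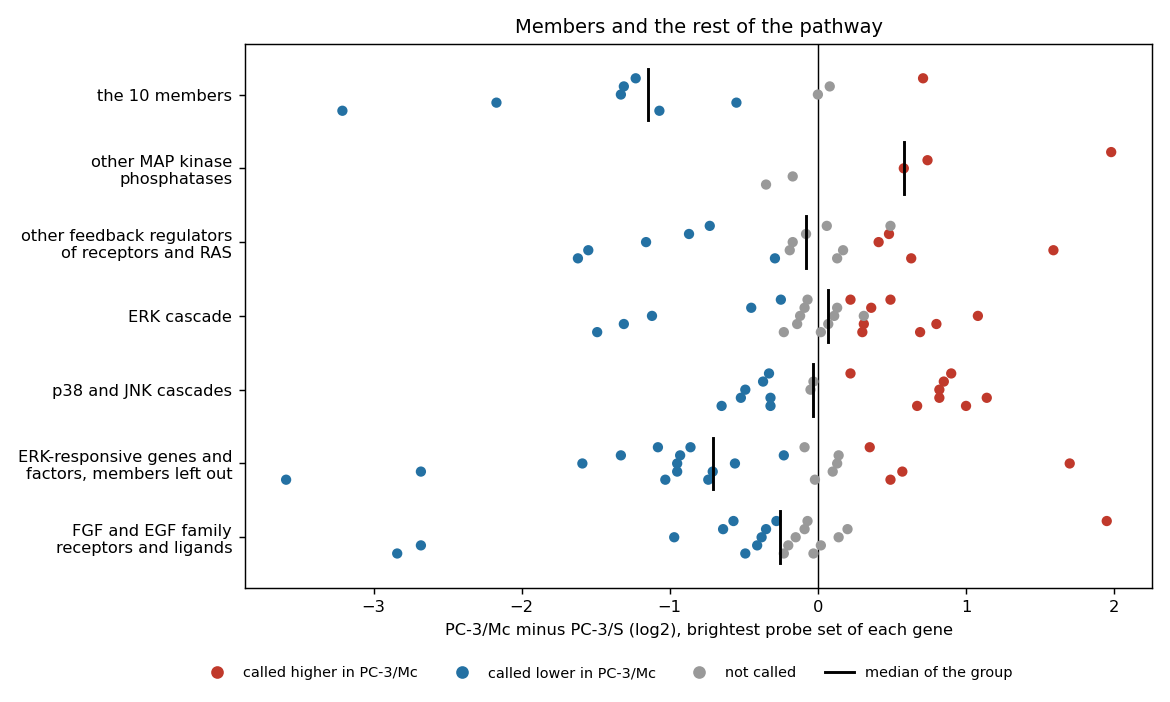
Difference between the lines (PC-3/Mc minus PC-3/S, log2) for the brightest probe set of each gene, for the 10 members and 6 lists of other pathway genes. Each group has 1 point per gene and a black bar at its median. HBEGF and EREG appear both among the ERK-responsive genes and among the FGF and EGF family genes. The members have a median of -1.15 and the ERK-responsive genes -0.71, while the ERK cascade (0.07) and the p38 and JNK cascades (-0.03) spread to both sides of 0.

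The genes most like 3 members over the 6 arrays, by Pearson correlation of log2 values, are given as a description, since with 2 lines such a correlation mostly restates the difference between them. Closest to SPRY2 were CCNH (0.9998), ZNF600 (0.9995) and SPMIP4 (0.9994), and 583 genes exceeded 0.99. Closest to ETV5 were MISP (0.9988), SPINT1 (0.9982) and RPAIN (0.9982), with 151 genes over 0.99. For DUSP6, which varied little, the closest were GNG8 (0.9732), HOXA2 (0.9703) and IGFBP2 (0.9698), all at background, and 0 genes exceeded 0.99.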

How the data were processed

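Total RNA of 3 PC-3/Mc and 3 PC-3/S arrays was measured on a one-colour Affymetrix platform, and arrays were assigned to lines from their titles. The starting point was the authors' deposited table of log2 expression values for 54675 probe sets. The sources used here do not name the authors' background correction or scaling. The base was settled from the values, whose maximum equals a linear signal of 22358 for base 2 and 1883185 for base e. The scaling method and target stay unknown, and a shift of most transcripts one way would not be seen.

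Gene names came from the platform annotation, and 10 of 10 member genes matched RefSeq by gene identifier. Values as deposited entered two-sided limma fits without covariates (limma 3.58.1, R 4.3.3; lmFit, eBayes) over 54613 probe sets, 62 controls left out, and again over 19775 genes by the probe set with the highest mean. Calls used a Benjamini-Hochberg adjusted p under 0.05. Named list genes were a fixed set plus up to 3 per direction and list, called, not overlapping and reaching the median of all genes (5.98) in the higher line. Of 120 list entries, 105 were measured. The fit was tested on simulated data, where 91.0% of 100 probe sets changed 2-fold and 100% of 100 changed 4-fold were recovered among 54613 probe sets. The simulation drew independent normal noise and changed only those probe sets, while 35.9% were called in the data. It therefore does not measure the error of the calls made here. Precision is limited by the number of arrays (median SE 0.0984). Members and lists were chosen with earlier results of these data known, so they are no independent evidence.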

Additional observations from a re-analysis of the deposited data

How the results depend on the processing

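The counts of called probe sets and genes, over all and over the members, stayed within 1.5 times their values under array centring, quantile normalization, a filter on dim probe sets, an intensity trend and the choice of probe set. With each array left out in turn, 15 to 16 of the 23 member probe sets were called, 11 to 12 lower and 4 to 5 higher, and 8 member genes each time. The calls of 7 lower genes and of ETV5 held in every setting that could be run. DUSP1 and SPRY4 have only probe sets ending in _x_at or _s_at, so leaving those out gave no value for them. The probe set calls that changed are named above, and their cause was not tested. Replicate numbers did not pair the arrays, since deviations of same-numbered arrays correlated at -0.01, -0.21 and -0.31. Those of differently numbered arrays correlated at -0.08 to 0.27. The highest were PC-3/Mc replicate 2 with PC-3/S replicate 3 (0.27) and PC-3/Mc replicate 3 with PC-3/S replicate 2 (0.26). Whether arrays of the lines shared a batch in another order was not tested. With the number as a replicate block, 16 member probe sets were called, as without it, and 17443 probe sets in all instead of 19582.

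Each line stands for itself, and differences between 2 lines cannot be told apart from differences between clones or cultures. Transcript levels say nothing of phosphatase protein or ERK activity. DUSP10 in PC-3/Mc, DUSP2 and DUSP9 in PC-3/S, and ETV5 probe set 231083_at lay at background, which limits their folds.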
